A study of Mus musculus with 83 samples.

Results

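The 10 circadian clock genes Clock, Arntl, Per1, Per2, Cry1, Ciart, Nr1d1, Nr1d2, Dbp and Tef were followed in single mouse ovarian follicles through the first hours of an ovulatory stimulus. They were taken by name, with no use of their values, from the 21572 gene rows of a table of estimated read counts. All 10 were among the 11889 genes that passed the expression filter and were tested. Follicles came from wild-type CD-1 mice, an outbred strain, and were used after vitrification, in which tissue is cooled into a glass without ice crystals, or fresh. Every follicle was grown for 8 days in 0.5% alginate in a growth medium with 10 mIU/ml recombinant FSH, bovine serum albumin, fetuin and insulin-transferrin-selenium. Those that had reached 300 to 350 µm were taken out of the alginate and put into a maturation medium. It held 10% fetal bovine serum, 10 mIU/ml recombinant FSH, 10 ng/ml EGF and 1.5 IU/ml hCG (human chorionic gonadotropin, a ligand of the luteinizing hormone receptor). Collection at 0, 1, 4 and 8 h of hCG gave 15, 14, 7 and 12 vitrified follicles and 18, 6, 7 and 4 fresh follicles, with 1 follicle per library.

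The design limits what a change over time can be set against. All 33 libraries of 0 h were on a plate of their own, so a difference between 1 h and 0 h cannot be told apart from a difference between plates. No group received the maturation medium without hCG, so hCG, EGF, serum and the transfer cannot be told apart either. The 1, 4 and 8 h libraries of fresh follicles shared a plate with 5, 7 and 3 vitrified libraries of those times (the shared plate), and 9 vitrified libraries of 1 h and 9 of 8 h lay on another (the vitrified-only plate). The labels used here state neither the time of day at collection nor the animals or culture runs, and p-values therefore reflect how single follicles vary, some of which may be technical. Because each library is a whole follicle, fewer cells of a type and less RNA per cell cannot be told apart.

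Library totals ran from 682200 to 6504588 counts, and 11830 to 17233 genes had a count. The TMM scaling factors moved with time and lay between 0.620 and 0.925 at 1 h and between 1.08 and 1.46 at 8 h. Scaling by total counts alone put the median of all genes at -0.65 in vitrified and -0.60 in fresh follicles for 1 h over 0 h, and at 0.73 and 0.75 for 8 h over 4 h, where TMM gave -0.05, -0.11, 0.17 and 0.12; calls that this scaling ends are named with their genes. A list of 9 granulosa cell markers made up 4.50% to 8.09% of the counts from 0 to 4 h and 1.37% to 2.29% at 8 h. Inha and Inhba held 7520772 and 3847206 counts over all libraries, against at most 386433 (Hsd17b1) for any other gene of this list. The share therefore follows mainly Inha and Inhba and does not measure the amount of granulosa cells. The 10 oocyte markers, at most 0.0130% in any library, were close to 0 (mean Gdf9 level, 3.83 CPM, a count rate that corrects for the scaled library total but not for gene length), although each library was made from 1 follicle. The 8 theca and stroma markers took 0.00379% to 0.355%, and the immune, endothelial and erythroid lists at most 0.0121%, 0.00895% and 0.000149%. The part of these markers in the clock gene results was not tested. The known response genes Areg, Ereg, Ptgs2 and Pgr were each higher at 1 h than at 0 h in both kinds of follicle. The counts of replicates 1 and 2 of vitrified 4 h were unusually alike (chi-square of 1.91 per degree of freedom, against a median of 14.8 over that group's pairs), but they differed by more than counting noise and were kept as 2 samples.

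In the mammalian clock, CLOCK and BMAL1 (encoded by Arntl) pair and bind E-boxes in DNA, where they switch on the genes of their own repressors. PER and CRY proteins and CIART, also called CHRONO, feed back on the pair, while the nuclear receptors REV-ERBα and REV-ERBβ, encoded by Nr1d1 and Nr1d2, repress Arntl through response elements that they share with the activating ROR receptors. DBP and TEF are bZIP factors that carry the rhythm to output genes through D-boxes. In many tissues Per1 and Per2 also answer acutely to cAMP signalling and serum, and granulosa cells, which signal through cAMP after luteinizing hormone, are among the ovarian cells known to express clock genes.

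Promoters of Per1, Cry1 and Ciart, which were chosen after a search for clock and cAMP elements had been seen, are shown as examples of windows that hold them. RefSeq promoters of GRCm38.p6, from 250 bases before to 50 bases after a transcription start, were matched for 9 of the 10 members, with 14 promoters in all. Capitals mark the E-box CACGTG and the core of the cAMP response element (CRE), which is TGACG. They also mark the core of the ROR and REV-ERB element, AGGTCA, which reads TGACCT where it lies on the other strand.
Per1, first start, chr11:69098699-69098998, plus strand: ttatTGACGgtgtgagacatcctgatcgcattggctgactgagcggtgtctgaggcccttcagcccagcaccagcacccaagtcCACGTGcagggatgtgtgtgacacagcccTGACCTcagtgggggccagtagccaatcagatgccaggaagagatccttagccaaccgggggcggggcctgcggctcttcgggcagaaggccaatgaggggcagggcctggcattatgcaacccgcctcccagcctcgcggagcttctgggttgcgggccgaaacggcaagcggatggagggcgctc
Per1, second start, chr11:69099902-69100201, plus strand: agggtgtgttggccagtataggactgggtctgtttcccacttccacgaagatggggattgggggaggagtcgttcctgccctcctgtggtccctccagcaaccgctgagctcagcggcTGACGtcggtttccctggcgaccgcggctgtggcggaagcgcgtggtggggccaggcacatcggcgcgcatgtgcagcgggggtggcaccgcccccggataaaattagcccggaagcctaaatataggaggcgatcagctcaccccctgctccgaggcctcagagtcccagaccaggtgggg
Cry1, chr10:85185005-85185304, minus strand: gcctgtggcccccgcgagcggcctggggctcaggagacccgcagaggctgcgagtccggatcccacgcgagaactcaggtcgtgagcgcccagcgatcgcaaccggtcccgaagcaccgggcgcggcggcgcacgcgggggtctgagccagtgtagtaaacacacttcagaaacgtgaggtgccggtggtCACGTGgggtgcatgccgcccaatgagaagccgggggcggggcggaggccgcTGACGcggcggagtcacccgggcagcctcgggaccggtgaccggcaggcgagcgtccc
Ciart, chr3:95882179-95882478, minus strand: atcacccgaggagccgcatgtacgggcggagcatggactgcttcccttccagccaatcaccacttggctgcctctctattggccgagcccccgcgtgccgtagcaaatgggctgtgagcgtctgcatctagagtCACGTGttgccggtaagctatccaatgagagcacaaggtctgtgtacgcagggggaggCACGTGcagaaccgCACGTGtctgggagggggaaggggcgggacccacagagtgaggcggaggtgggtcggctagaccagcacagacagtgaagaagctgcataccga
The Ciart promoter held 3 E-boxes, at -116, -58 and -44 from the start. The first Per1 promoter held a TGACG at -246, an E-box at -166 and the reversed AGGTCA at -137, and the second held a TGACG at -132. The Cry1 promoter held an E-box at -60 and a TGACG at -8. With both strands searched, CACGTG occurred in 5 of the 14 promoters of the members and in 7.15% of all 32851 promoters of that length, TGACG in 3 and 20.81%, and AGGTCA in 4 and 16.26%. The Nr1d1 promoter held none of the letters searched, that of Nr1d2 held AGGTCA alone, both Tef promoters held CACGTG, and Per2 was not matched. The longer forms were rarer. TAGGTCA, which contains AGGTCA, was in 1 promoter of the members, at 31 bases after a start of Arntl, and in 2.61% of all, whereas TGACGTCA, which contains TGACG, and the D-boxes TTATGTAA and TTACGTAA were in none of the 14 and in 1.79%, 0.94% and 0.12% of all. These letter matches are a description of the windows and do not show binding.

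Levels below are CPM after TMM scaling, and differences are log2 fold changes ± SE with p-values from edgeR's quasi-likelihood test, adjusted by Benjamini-Hochberg over all genes tested and called at 0.05. On the TPM scale, which corrects for gene length as well as library total, Per1 had the highest mean of the 10 members in every group and plate. Its mean TPM at 0, 1, 4 and 8 h on the shared plate (0 h on its own plate) was 16.4, 107.5, 139.7 and 404 in vitrified follicles and 17.9, 115, 136 and 316 in fresh ones. Arntl was the lowest member at 0 h, with a mean of 0.141 TPM in vitrified and 0.149 TPM in fresh follicles. Nr1d2 came second at 1 h in both kinds, and Nr1d1 came second at 4 h and 8 h.

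**Figure D1:**
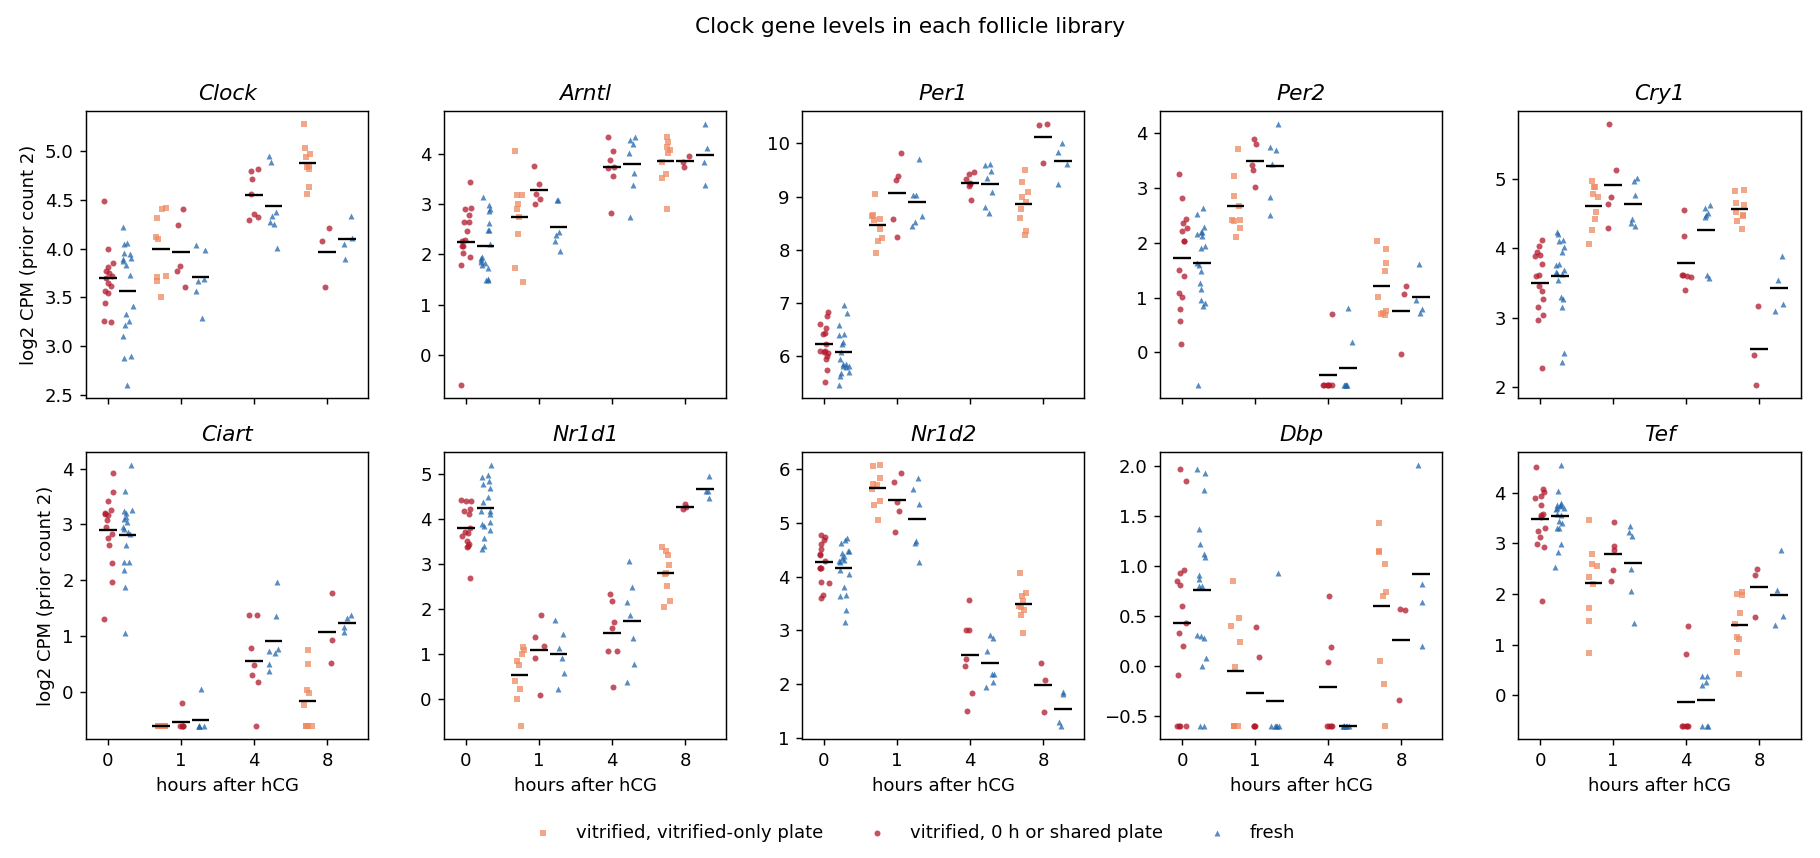
Level of each of the 10 clock genes as log2 CPM (prior count 2) against hours after hCG, with 1 point per library. Orange squares are vitrified follicles on the vitrified-only plate, red circles the other vitrified follicles, blue triangles fresh follicles, and black lines are means; Per1 was higher in every library after 0 h than in any at 0 h, and Ciart had almost no counts at 1 h.

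At 1 h against 0 h, the clock genes divided into 5 that were higher, 4 that were lower and 1 that was not called in vitrified follicles on the shared plate, and 4 higher, 4 lower and 2 not called in fresh follicles. The share of all genes tested that were called was 43.5% in vitrified and 42.1% in fresh follicles. Repressor genes lay on both sides: Per1, Per2, Cry1 and Nr1d2 were higher, while Nr1d1 and Ciart were lower together with the output factors Dbp and Tef. At 4 h against 1 h, 6 members were called in vitrified follicles (2 higher, 4 lower, beside 46.5% of all genes) and 7 in fresh follicles (4 higher, 3 lower, beside 46.4% of all genes). At 8 h against 4 h, 6 were called in each kind, 4 higher and 2 lower, beside 37.1% of all genes in vitrified and 36.5% in fresh follicles. With so many genes called, the counts of members are not read as particular to the clock genes, and the members' own levels follow.

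Per1, a repressor of the CLOCK-BMAL1 pair, rose at 1 h and stayed up. In vitrified follicles its lowest, median and highest levels were 45.5, 68.3 and 113 CPM at 0 h, then 492, 611 and 701 CPM at 4 h; at 1 h on the shared plate the 5 libraries held 908, 638, 383, 669.6 and 302 CPM, and at 8 h the 3 libraries held 1300.4, 792 and 1320.0 CPM. In fresh follicles the lowest, median and highest levels were 43.2, 59.5 and 124 CPM at 0 h, 348, 459 and 829 CPM at 1 h, and 410.5, 649 and 786 CPM at 4 h, and the 4 libraries of 8 h held 601, 911, 1031 and 780.3 CPM. No library of 1, 4 or 8 h overlapped those of 0 h. The difference between 1 h and 0 h was 2.93 ± 0.19 in vitrified follicles (adjusted p = 3.33e-25) and 2.84 ± 0.17 in fresh follicles (adjusted p = 7.14e-27). Between 4 h and 1 h Per1 was not called in either kind. Between 8 h and 4 h it rose by 0.88 ± 0.26 in vitrified follicles of the shared plate (adjusted p = 0.00482), while the difference in fresh follicles was 0.43 (adjusted p = 0.159) and was called under scaling by total counts (1.06) and under limma on log2(TPM + 1) (1.22).

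Per2, the close relative of Per1, also rose at 1 h but did not stay up. The 5 vitrified libraries of 1 h on the shared plate held 7.43, 9.38, 10.0, 13.3 and 14.3 CPM, against a lowest, median and highest level of 0.459, 3.43 and 8.95 CPM at 0 h. Fresh follicles held 5.05, 11.3 and 17.4 CPM at 1 h (lowest, median, highest), against 0, 2.77 and 5.53 CPM at 0 h. The ranges overlapped only at their ends, and the differences were 1.86 ± 0.37 in vitrified (adjusted p = 1.99e-05) and 1.95 ± 0.34 in fresh follicles (adjusted p = 1.55e-06). At 4 h Per2 was almost undetected: 6 of 7 vitrified and 5 of 7 fresh libraries had no count, and the highest held 0.967 and 1.09 CPM. Summed counts were 2 at 4 h against 186 at 1 h in vitrified follicles, a ratio of 79.2 in favour of 1 h with a 95% counting interval of 21.6 to 658, and 3 against 142 in fresh follicles, a ratio of 48.1 (16.1 to 236). Such intervals cover counting error only. Both falls were called (adjusted p = 9.33e-12 and 4.36e-11). At 8 h every library again held Per2, with 1.66, 1.44 and 0.325 CPM in vitrified follicles of the shared plate and 1.07, 1.29, 0.978 and 2.39 CPM in fresh follicles. Per2 was called higher at 8 h than at 4 h in vitrified (adjusted p = 0.0194) and fresh follicles (adjusted p = 0.00898), on 17 against 2 and 31 against 3 counts. The vitrified call held in 11 of 13 alternatives, and was among others lost without vitrified 8 h replicate 2 (2.27, adjusted p = 0.118).

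Cry1, whose protein represses CLOCK-BMAL1 directly, was also highest at 1 h on the shared plate. Vitrified follicles held 24.2, 26.1, 19, 34.3 and 55.0 CPM at 1 h on the shared plate, against 4.16, 11.5 and 16.7 CPM at 0 h (lowest, median, highest). Fresh follicles ran through 19.4, 23.8 and 31.6 CPM at 1 h, against 4.49, 12.1 and 18.2 CPM at 0 h. In neither kind did the ranges overlap, and Cry1 rose by 1.45 ± 0.21 in vitrified (adjusted p = 5.99e-09) and 1.01 ± 0.20 in fresh follicles (adjusted p = 1.26e-05). The 4 h levels were 9.92, 11.6 and 22.7 CPM in vitrified and 11.2, 21.6 and 24 CPM in fresh follicles. They were lower than at 1 h by the test in vitrified follicles (-1.21 ± 0.25, adjusted p = 3e-05) and not called in fresh ones (-0.37, adjusted p = 0.205); the difference between these steps was not called (-0.84 ± 0.35, adjusted p = 0.631). At 8 h the shared plate held 8.29, 4.86 and 3.41 CPM in vitrified and 8.54, 11, 14.2 and 7.92 CPM in fresh follicles, a change from 4 h of -1.38 ± 0.33 (adjusted p = 0.000519) and -0.91 ± 0.28 (adjusted p = 0.00694). With libraries scaled by their total counts alone these became -0.77 and -0.29 and were no longer called. Neither fall was called under limma on log2(TPM + 1) or log2(TPM + 0.1), nor the vitrified one in the fits that pool vitrified libraries of both plates.

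Ciart, a target of CLOCK-BMAL1 that represses it in turn, had nearly vanished at 1 h. At 0 h its lowest, median and highest levels were 1.84, 7.84 and 14.5 CPM in vitrified follicles and 1.44, 6.99 and 16.1 CPM in fresh ones. At 1 h there was 1 count among the 5 vitrified libraries of the shared plate, none in any of the 9 of the vitrified-only plate, and 1 count among the 6 fresh libraries. The groups did not overlap. Against 310 counts at 0 h in vitrified follicles and 414 in fresh ones, the ratios were 124 (95% counting interval 22.2 to 4931) and 89.5 (16 to 3544) in favour of 0 h (adjusted p = 2.09e-12 and 6.91e-12), and the vitrified-only plate was at least 36.3-fold lower than 0 h, taking 3 counts over the group as the floor. At 4 h the lowest, median and highest levels were 0, 0.740 and 1.94 CPM in vitrified and 0.650, 1.01 and 3.27 CPM in fresh follicles. These rose above 1 h on 14 against 1 and 18 against 1 counts (ratios of 16.4, 2.50 to 696, and 17.7, 2.80 to 739; adjusted p = 0.0013 and 0.000523). At 8 h vitrified libraries of the shared plate held 1.24, 0.788 and 2.76 CPM and fresh libraries 1.60, 1.94, 1.47 and 1.84 CPM, which were not called against 4 h and lay within or below the 0 h ranges.

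Nr1d1, which encodes REV-ERBα, followed a similar course with a fuller return. At 0 h it ran at 5.82, 12.5 and 20.9 CPM (lowest, median, highest) in vitrified and 9.46, 17.5 and 36.6 CPM in fresh follicles. At 1 h the vitrified libraries of the shared plate held 3.03, 0.408, 1.62, 1.21 and 1.95 CPM, and fresh follicles ran through 0.502, 1.39 and 2.73 CPM. Every library of 1 h was below every library of 0 h, with changes of -3.01 ± 0.36 in vitrified (adjusted p = 2.36e-11) and -3.75 ± 0.37 in fresh follicles (adjusted p = 4.16e-15). Levels at 4 h were 0.540, 2.34 and 4.44 CPM in vitrified follicles, not called against 1 h (0.50, adjusted p = 0.371), and 0.650, 3.02 and 7.78 CPM in fresh follicles, which was called (1.24 ± 0.45, adjusted p = 0.0177, and 0.49 and not called under limma on log2(TPM + 1)). By 8 h the shared plate held 19.5, 18.7 and 18.2 CPM in vitrified and 30.8, 24.3, 21.5 and 24.3 CPM in fresh follicles. Each of these lay above every library of 4 h, with rises of 2.91 ± 0.39 (adjusted p = 2.25e-09) and 2.86 ± 0.35 (adjusted p = 1.62e-10). Nr1d1 shares 263 of its 3077 exon bases (8.55%) with Thra on the opposite strand, and the libraries do not mark strand. Thra averaged 5.46 CPM at 1 h (shared plate) and 5.97 CPM at 0 h in vitrified follicles, and 5.05 CPM at 1 h and 6.64 CPM at 0 h in fresh ones, and Thra was not called in either. Between 4 h and 1 h Thra was called lower in vitrified (-1.78 ± 0.47, adjusted p = 0.00116) and fresh follicles (-1.39 ± 0.47, adjusted p = 0.0103). Between 8 h and 4 h Thra was called higher in fresh follicles (2.02 ± 0.47, adjusted p = 0.000346). It was not called in vitrified ones (1.18, adjusted p = 0.08). The part of the shared bases in the Nr1d1 counts was not tested.

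Nr1d2, which encodes REV-ERBβ, ran opposite to Nr1d1 at 1 h and did not share its rise at 8 h on the shared plate. In vitrified follicles the 1 h libraries of the shared plate held 27.8, 53.4, 41.4, 60.2 and 36.5 CPM, against 11.5, 18.9 and 26.8 CPM at 0 h (lowest, median, highest). Fresh follicles ran through 18.6, 32.4 and 56.7 CPM at 1 h, against 8.21, 19.1 and 25.5 CPM at 0 h. The vitrified groups did not overlap and the fresh groups did, with rises of 1.19 ± 0.21 (adjusted p = 1.39e-06) and 1.00 ± 0.19 (adjusted p = 1.39e-05). At 4 h every library was below every 1 h library of its kind, at 2.16, 4.84 and 11.2 CPM in vitrified and 3.20, 3.90 and 6.87 CPM in fresh follicles, with changes of -2.90 ± 0.27 (adjusted p = 1.46e-15) and -2.89 ± 0.28 (adjusted p = 2.36e-15). The 8 h libraries of the shared plate stayed low, at 4.56, 3.55 and 2.11 CPM in vitrified follicles (not called against 4 h, -0.83, adjusted p = 0.0644, and 0.01 under limma on log2(TPM + 1)) and 1.78, 2.84, 2.93 and 1.66 CPM in fresh follicles (-1.06 ± 0.35, adjusted p = 0.0127). The fresh call was lost under scaling by total counts (-0.44) and under limma on log2(TPM + 1) and log2(TPM + 0.1).

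Of the activator genes, Clock had the smallest range of the 10 members. Clock, which encodes the partner of BMAL1, had a lowest, median and highest level of 8.81, 12.4 and 21.8 CPM in vitrified and 5.39, 13.1 and 18 CPM in fresh follicles at 0 h, and at 1 h was not called in either kind (0.31 ± 0.19 and 0.10 ± 0.18, and -0.29 and -0.39 under scaling by total counts). At 4 h it ran at 19, 22.9 and 27.6 CPM in vitrified and 15.4, 19.5 and 30.4 CPM in fresh follicles, higher than at 1 h by 0.59 ± 0.21 (adjusted p = 0.018) and 0.80 ± 0.21 (adjusted p = 0.00104). The vitrified call was lost without 1 h replicate 1 (0.50) or 3 (0.53). At 8 h on the shared plate vitrified libraries held 17.8, 11.6 and 16.2 CPM and fresh libraries 14.2, 15.9, 16.6 and 19.5 CPM. The vitrified change from 4 h was called (-0.61 ± 0.25, adjusted p = 0.0453). That call held in only 1 of 13 alternatives, with values from -0.69 to 0.15. It was lost under scaling by total counts, and without 8 h replicate 1, 2 or 3 (-0.69, -0.40 and -0.62) or 4 h replicate 2 (-0.57). The fresh change was not called (-0.39, adjusted p = 0.167, and 0.25 under scaling by total counts).

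Arntl, the gene of BMAL1, stood higher at the later times. Its lowest, median and highest levels at 0 h were 0, 4.21 and 10.1 CPM in vitrified and 2.15, 3.19 and 8.19 CPM in fresh follicles. At 1 h the vitrified libraries of the shared plate held 9.91, 7.34, 7.85, 8.49 and 12.8 CPM, above 0 h by 0.99 ± 0.28 (adjusted p = 0.00266, and 0.40 and not called under scaling by total counts). Fresh follicles held 3.51, 4.68 and 7.78 CPM at 1 h, within the range of 0 h (0.39 ± 0.29, adjusted p = 0.285, and -0.10 under scaling by total counts). The 4 h levels were 6.42, 12.6 and 19.3 CPM in vitrified and 5.99, 15.6 and 19.6 CPM in fresh follicles. Arntl was higher at 4 h than at 1 h in fresh follicles (1.36 ± 0.33, adjusted p = 0.000313) and not called in vitrified ones (0.49, adjusted p = 0.203), and the difference between these steps was not called (-0.86 ± 0.45, adjusted p = 0.744). At 8 h the shared plate held 13.7, 12.6 and 14.9 CPM in vitrified and 13.5, 23.5, 16.6 and 9.76 CPM in fresh follicles, with no call against 4 h (0.06 and 0.17); under limma on log2(TPM + 1) both were called higher (0.26 and 0.35).

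Of the output factors, Tef had libraries without a count only at 4 h. It ran at 2.97, 11.1 and 22.2 CPM (lowest, median, highest) in vitrified and 5.16, 11.7 and 22.8 CPM in fresh follicles at 0 h, and at 1 h at 6.6, 4.89, 7.04, 10.1 and 4.13 CPM in vitrified follicles of the shared plate and 2.05, 6.6 and 9.50 CPM in fresh ones. The lower level at 1 h was called in both (-0.84 ± 0.33, adjusted p = 0.0299, and -0.85 ± 0.31, adjusted p = 0.0209). The vitrified call held in 10 of 14 alternatives, and was lost without 1 h replicate 1, 2 or 5 (-0.85, -0.77 and -0.71) and without the expression filter. At 4 h 5 of 7 vitrified and 3 of 7 fresh libraries had no Tef count, and the highest held 1.93 and 0.650 CPM. Against 1 h the change was -3.65 ± 0.53 in vitrified (adjusted p = 1.12e-08) and -4.22 ± 0.58 in fresh follicles (adjusted p = 2.42e-09). At 8 h it was back at 4.56, 4.99 and 2.27 CPM in vitrified follicles of the shared plate and 3.56, 2.32, 1.96 and 6.63 CPM in fresh ones, each above every library of 4 h. These rises were 2.92 ± 0.59 (adjusted p = 3.93e-05) and 3.47 ± 0.62 (adjusted p = 4.37e-06).

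Dbp, usually among the clock's most strongly cycling outputs, was scarce throughout, with no library above 3.38 CPM. At 0 h 4 of 15 vitrified libraries lacked it and the highest held 3.26 CPM, and the median fresh library held 1.13 CPM and the highest 3.27 CPM. At 1 h 3 of 5 vitrified libraries of the shared plate lacked it and the others held 0.404 and 0.652 CPM, and 5 of 6 fresh libraries lacked it and the other held 1.25 CPM. Dbp was called lower at 1 h in vitrified follicles (-1.95 ± 0.81, adjusted p = 0.0419) and in fresh ones (3 against 83 counts, a ratio of 5.98 in favour of 0 h, 1.98 to 29.6, adjusted p = 0.0145). The vitrified call held in 8 of 14 alternatives. It was lost without 1 h replicate 1, 2 or 3 (-1.66, -1.74 and -1.65), without the expression filter, and under limma on log2(TPM + 1) and log2(TPM + 0.1). All 7 fresh libraries of 4 h lacked it, so that the 4 fresh libraries of 8 h, with 3.38, 0.904, 0.489 and 1.10 CPM, were at least 7.13-fold higher against a floor of 3 counts over the group (adjusted p = 0.000372). Without fresh 8 h replicate 1, Dbp did not pass the expression filter. The 3 vitrified libraries of 8 h on the shared plate held 0.83, 0.131 and 0.812 CPM, not called against 4 h (0.88). Dbp shares 539 of its 2993 exon bases (18.01%) with Sphk2 on the other strand. Sphk2 averaged 4.94 CPM at 1 h (shared plate) and 26.4 CPM at 0 h in vitrified follicles and 5.73 CPM at 1 h and 21.6 CPM at 0 h in fresh ones. At 4 h Sphk2 averaged 29.1 CPM in vitrified and 22.3 CPM in fresh follicles, and at 8 h on the shared plate 54.7 and 41.1 CPM. The part of these shared bases in the Dbp counts was not tested.

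**Figure D2:**
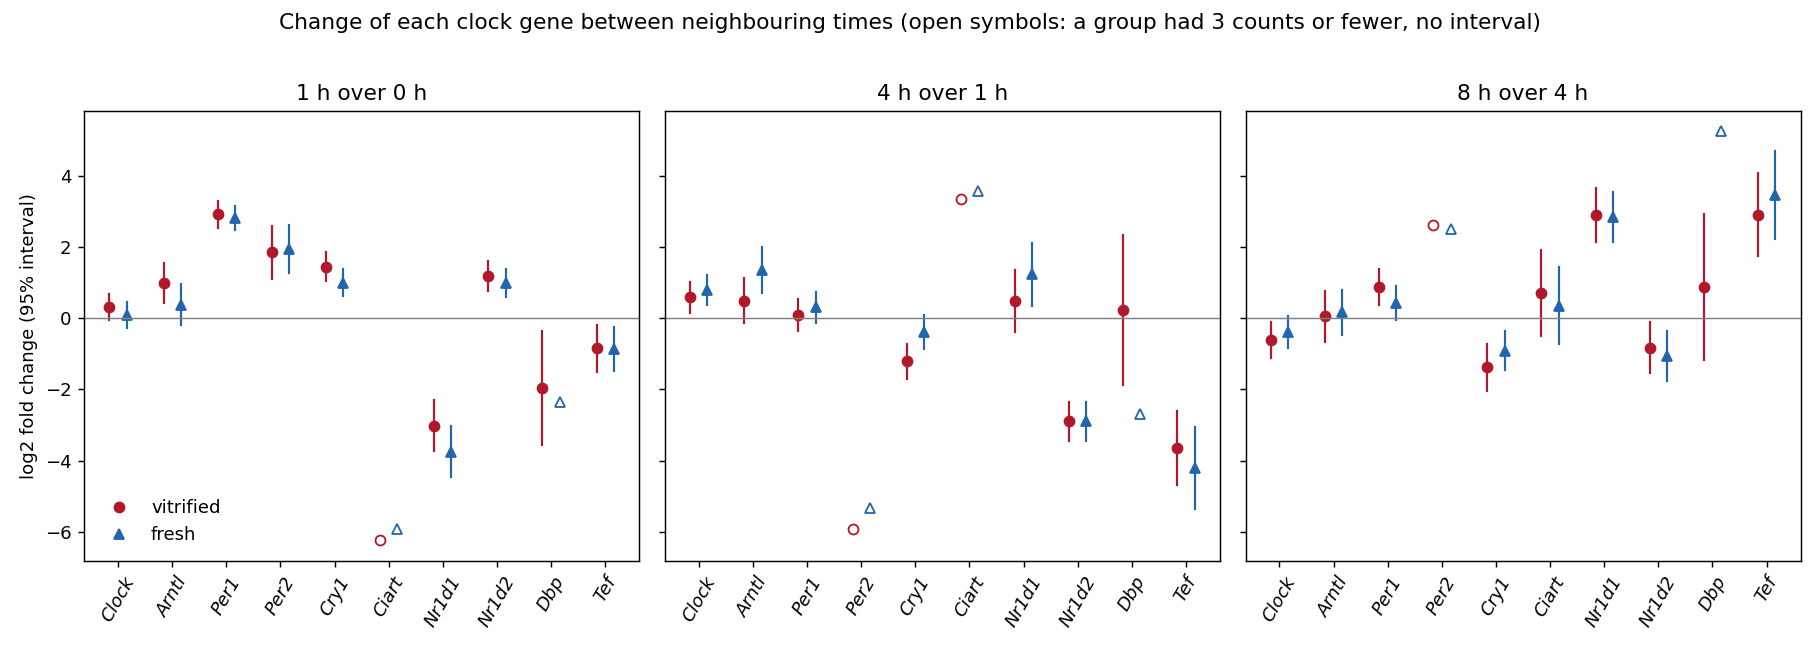
Log2 fold change with its 95% interval for each clock gene between neighbouring times (1 over 0 h, 4 over 1 h, 8 over 4 h), vitrified (shared plate after 0 h) before fresh. Open symbols have no interval because a group held 3 counts or fewer. Nr1d1 and Nr1d2 lie on opposite sides of 0 in the first step, at -3.01 and 1.19 for vitrified and -3.75 and 1.00 for fresh follicles. In the last step Nr1d1 was called higher in both kinds, and Nr1d2 was called lower in fresh follicles only.

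The members were also compared between 8 h and 1 h directly, within the shared plate. Their counts are again not read as particular to the clock genes. In vitrified follicles 6 members were called (3 higher, 3 lower, beside 50.1% of all genes) and in fresh follicles 8 (5 higher, 3 lower, beside 49.7% of all genes). Higher in both were Nr1d1 (3.41 in vitrified and 4.10 in fresh follicles), Per1 (0.97 and 0.74) and Ciart (26 against 1 and 37 against 1 counts), and lower in both were Nr1d2 (-3.73 and -3.96), Per2 (-3.29 and -2.83) and Cry1 (-2.59 and -1.28). The fresh Cry1 call was lost under scaling by total counts and under limma on log2(TPM + 1) and log2(TPM + 0.1). Arntl (1.53, adjusted p = 0.00016) and Dbp (33 against 3 counts, adjusted p = 0.0155) were further called higher in fresh follicles. Across the means of the 10 groups and plates, the highest and lowest mean log2 CPM of a member differed by 4.14 for Nr1d1, 4.12 for Nr1d2, 4.04 for Per1, 3.91 for Per2, 3.66 for Tef, 3.51 for Ciart, 2.37 for Cry1, 1.80 for Arntl, 1.52 for Dbp and 1.32 for Clock, beside a median of 1.85 over all genes tested. These values carry a prior count of 2, which narrows the range of genes with groups near 0 counts, such as Per2, Tef, Ciart and Dbp. Their order is therefore not an order of fold changes.

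Vitrified and fresh follicles were compared at each time on the same plate. No member was called at 0, 1, 4 or 8 h by DESeq2 or by the main edgeR fit, which had 1 mean for each group on each plate. Of all genes, 0.967%, 0.555%, 0.118% and 2.06% were called at these times, and 1305, 1227, 770 and 1357 genes had an unadjusted p under 0.05. The 95% intervals rest on the spread of single follicles and do not take in differences between animals or culture runs, which the labels do not give. At 0 h, where the groups were largest, they were -0.15 to 0.41 for Per1, -0.20 to 0.41 for Nr1d2, -0.41 to 0.22 for Cry1, -0.19 to 0.34 for Clock, -0.27 to 0.60 for Arntl, -0.49 to 0.73 for Per2, -0.38 to 0.45 for Tef, -0.40 to 0.57 for Ciart and, the widest, -1.23 to 0.50 for Dbp. The interval for Nr1d1 at 0 h lay below 0, at -0.85 to -0.11 (-0.48 ± 0.19, adjusted p = 0.263), with 14 ± 4.67 CPM in vitrified (SD, n = 15) and 19.9 ± 8.07 CPM in fresh follicles (n = 18). Under limma on the deposited log2(TPM + 1) values, which called 1553 genes at 0 h, Nr1d1 alone of the 10 was called lower in vitrified follicles (-0.64, adjusted p = 0.00742).

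At later times the intervals were wider. Arntl at 1 h differed by 0.77 ± 0.34, with an interval of 0.08 to 1.45, and did not pass the correction (adjusted p = 0.418). The Cry1 difference was -0.48 ± 0.24 at 4 h (interval -0.96 to -0.01, adjusted p = 0.763) and -0.95 ± 0.35 at 8 h (interval -1.65 to -0.26, adjusted p = 0.164). At 8 h its direction turned in the edgeR fits that pool the vitrified libraries of both plates, to 0.49 with a plate term and 0.87 without one, neither of them called. At 8 h those pooled fits called Nr1d2 higher in vitrified follicles, with and without the plate term, and Nr1d1 lower without it. For Per1 the interval was -0.41 to 0.42 at 4 h and -0.14 to 1.04 at 8 h. At 8 h all 3 vitrified libraries of the shared plate held less Nr1d1 than all 4 fresh libraries, as did 5.96% of genes in that direction, and the difference was -0.43 ± 0.39 (adjusted p = 0.775). None of the 10 members was called for a step that differed between vitrified and fresh follicles from 0 to 1 h, 1 to 4 h or 4 to 8 h by edgeR's test or by DESeq2, beside 0.16%, 0.0421% and 0.993% of all genes, with 875, 781 and 1031 genes at an unadjusted p under 0.05.

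**Figure D3:**
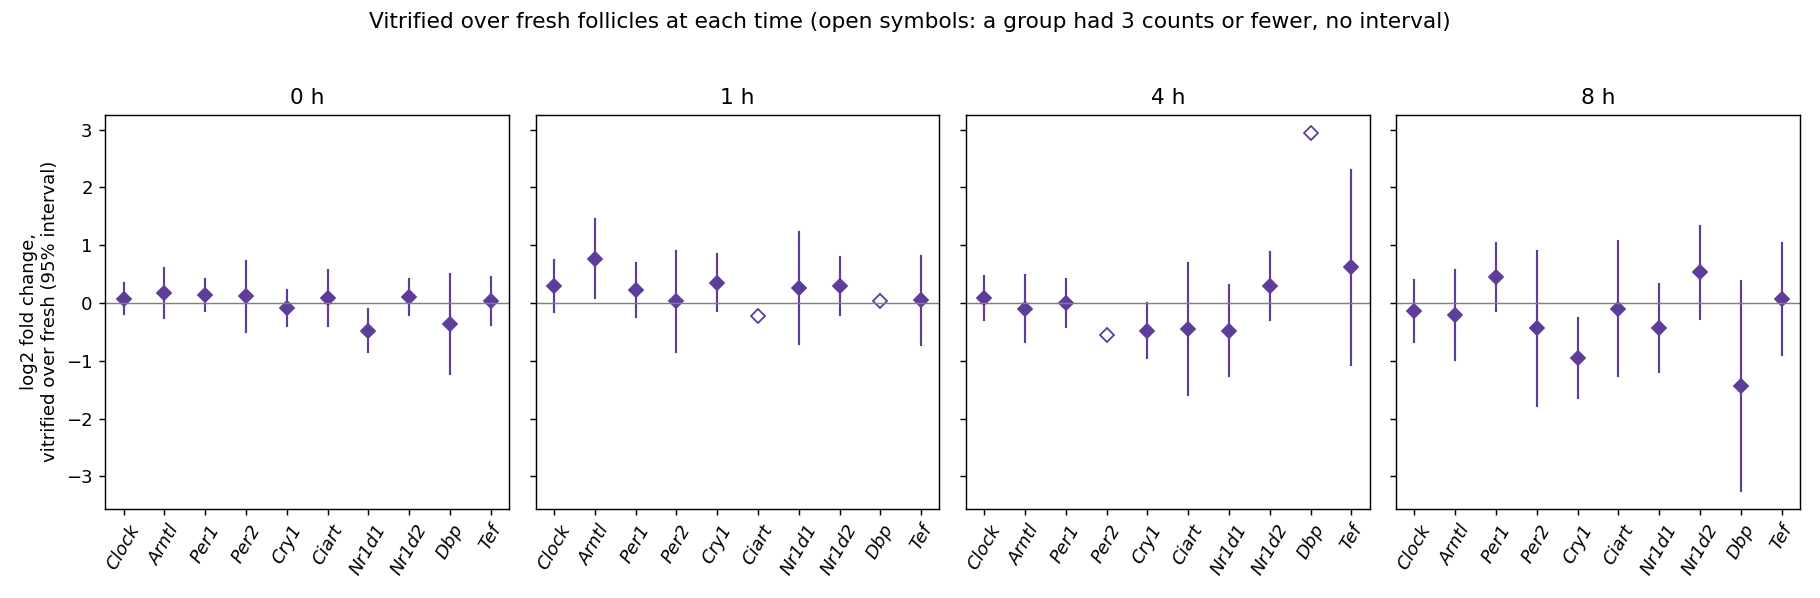
Log2 fold change of vitrified over fresh follicles with its 95% interval for each clock gene, 1 panel per time after hCG, on the plate the kinds share. Open symbols have no interval because a group held 3 counts or fewer. No gene passed the test at any time; of the intervals drawn, those of Nr1d1 at 0 h (-0.85 to -0.11) and of Cry1 at 4 h (-0.96 to -0.01) and 8 h (-1.65 to -0.26) lay below 0 and that of Arntl at 1 h (0.08 to 1.45) above it.

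Vitrified follicles of the same time differed between plates, at 8 h above all. At 1 h none of the 10 members was called between the vitrified-only and the shared plate by the main edgeR fit or DESeq2 (beside 1.37% of all genes, with 1610 genes at an unadjusted p under 0.05), and the Per1 difference was -0.68 ± 0.21 (adjusted p = 0.0821). Per1 was called lower in 3 of 11 alternatives. At 8 h 6 of 10 were called, 3 higher and 3 lower, against 23.4% of all genes. Cry1 ran at 18.8, 22.5 and 28 CPM on the vitrified-only plate (lowest, median, highest of 9), against 8.29, 4.86 and 3.41 CPM on the shared plate, and Nr1d2 at 7.07, 10.3 and 16.2 CPM, against 4.56, 3.55 and 2.11 CPM. Clock stood at 23, 28.3 and 38.3 CPM on the vitrified-only plate, against 17.8, 11.6 and 16.2 CPM on the shared plate. None of these overlapped, and they were higher on the vitrified-only plate by 2.14 ± 0.33 (adjusted p = 5.78e-07), 1.72 ± 0.35 (adjusted p = 9.99e-05) and 0.95 ± 0.24 (adjusted p = 0.00242).

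Nr1d1 was lower there, at 3.49, 6.31 and 9.83 CPM on the vitrified-only plate, against 19.5, 18.7 and 18.2 CPM on the shared plate (-1.50 ± 0.32, adjusted p = 0.0003). Per1 was lower too, at 312, 477 and 720.0 CPM, against 1300.4, 792 and 1320.0 CPM (-1.24 ± 0.24, adjusted p = 7.43e-05). Of the 10 members, these 5 did not overlap between the plates, against 15.1% of all genes. Ciart, absent from 4 of 9 libraries of the vitrified-only plate and at most 1.04 CPM there, against 0.788 to 2.76 CPM, was lower by -2.36 ± 0.58 (adjusted p = 0.00156), and lost the call without shared-plate replicate 3 (-1.64, adjusted p = 0.156). The labels used here do not say whether the plates differed in culture run, animals or handling.

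**Figure D4:**
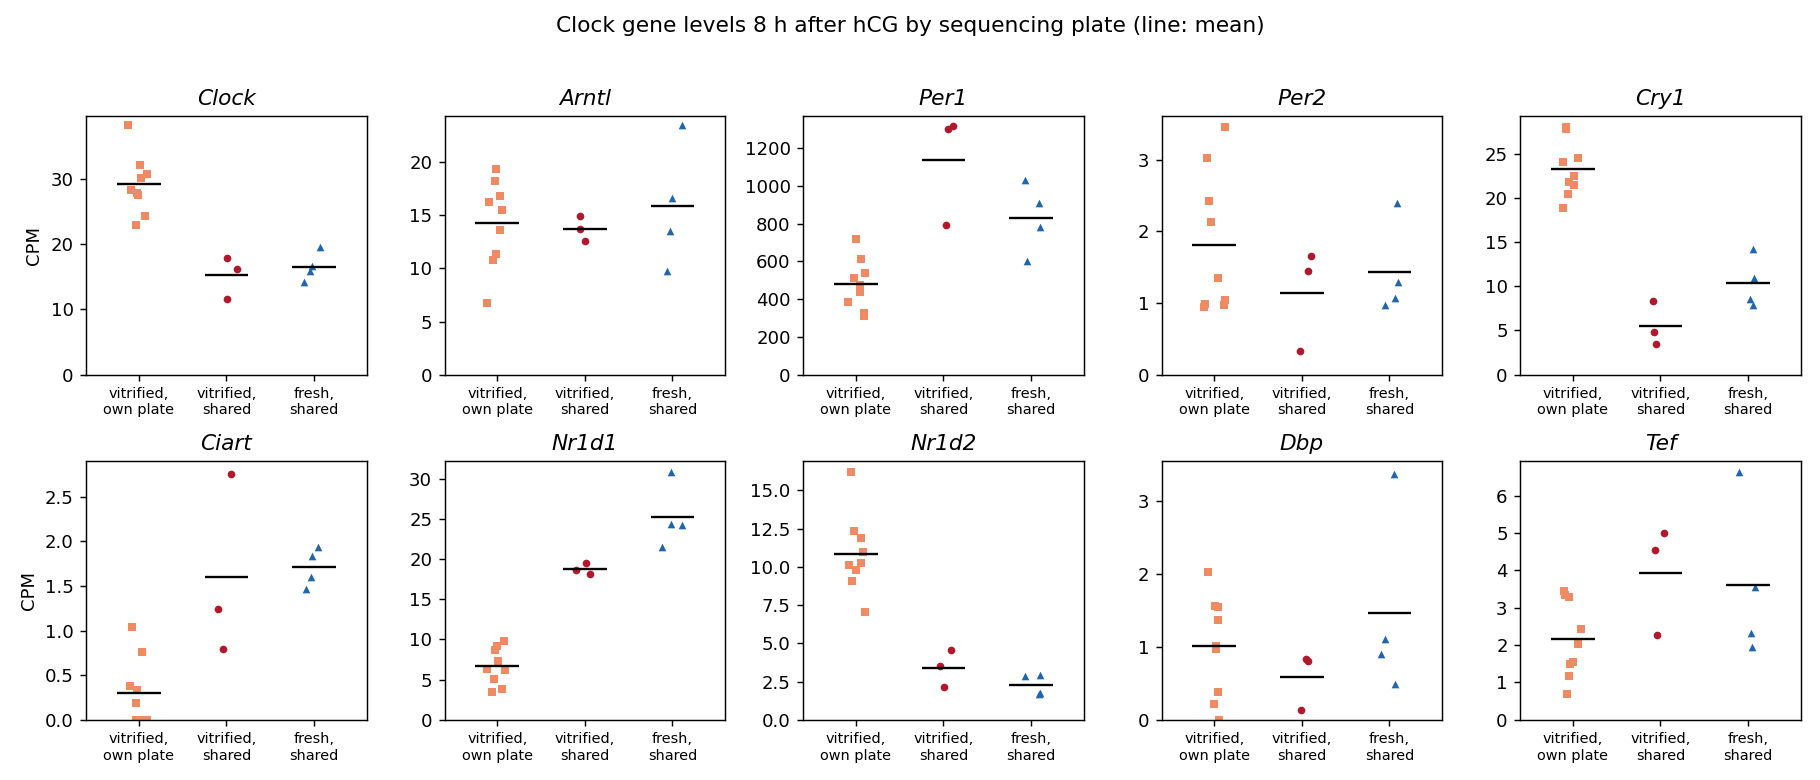
CPM of each clock gene at 8 h after hCG in vitrified follicles on the vitrified-only plate, vitrified follicles on the shared plate and fresh follicles on the shared plate, with 1 point per library. Cry1 lay between 18.8 and 28 CPM on the vitrified-only plate, above all 7 libraries of the shared plate.

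Within the vitrified-only plate, 8 h against 1 h had 8 members called (5 higher, 3 lower, beside 59.4% of all genes). Nr1d1 (2.94) was higher and Nr1d2 (-2.23) and Per2 (-1.72) were lower, the same directions as on the shared plate. The Per2 call held in 6 of 8 alternatives, with values from -2.28 to -0.15. Per1 was higher by 0.41 (adjusted p = 0.0484, and 0.0525 under DESeq2), and Cry1, lower on the shared plate, was not called (-0.07, adjusted p = 0.767). That value depended on the processing: Cry1 was called higher under scaling by total counts (0.70) and limma (0.61 on log2(TPM + 1), 0.94 on log2(TPM + 0.1)), and called lower with 8 groups pooled over plates, with a plate term (-0.69) or without (-0.54). Clock (0.87), Arntl (1.11) and Ciart (11 against 0 counts, not called by DESeq2) were called higher and Tef lower (-1.06, and -0.27 and not called under scaling by total counts). At 1 h against 0 h this plate had 7 members called (4 higher, 3 lower, beside 54.4% of all genes): Per1 (2.24), Nr1d2 (1.41), Cry1 (1.08) and Per2 (1.00, and 0.37 and not called under scaling by total counts) higher, and Nr1d1 (-4.04), Tef (-1.34) and Ciart lower, the directions seen on the shared plate.

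Of 24 further clock genes listed, 22 were in the table and 17 were tested. At 1 h against 0 h, 10 of the 17 were higher and 2 lower in vitrified follicles (median 0.89, against -0.05 over all genes tested), beside 43.5% of all genes called, and 6 higher and 2 lower in fresh ones (median 0.11, against -0.11), beside 42.1%. These counts are not read as particular to clock genes. Cry2, the second cryptochrome repressor, had the largest rise of the clock genes tested, with a mean of 4765 CPM at 1 h (shared plate) against 27.1 CPM at 0 h in vitrified follicles, and 3871 CPM against 34.2 CPM in fresh ones. These rises were 7.44 ± 0.18 and 6.82 ± 0.16, and on the vitrified-only plate the mean at 1 h was 3695 CPM. At 4 h Cry2 was down to 319 CPM in vitrified and 199 CPM in fresh follicles, with changes from 1 h of -3.90 ± 0.22 and -4.28 ± 0.22. Cry2 lies on chromosome 2 at 92403646 to 92434043, minus strand (GRCm38), and 295 of its 6320 exon bases (4.67%) are shared with D930015M05Rik on the other strand.

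Nfil3, whose protein competes with DBP and TEF for D-boxes, moved against them at 1 h, with rises of 4.46 ± 0.32 in vitrified and 3.43 ± 0.27 in fresh follicles. It was lower in vitrified than in fresh follicles at 0 h, at a mean of 2.08 CPM against 5.28 CPM (-1.28 ± 0.29, adjusted p = 0.0078). Rora, a ROR receptor that activates Arntl, rose late: its mean at 8 h on the shared plate was 108 CPM against 10.6 CPM at 4 h in vitrified follicles (3.34 ± 0.38), and 102 CPM against 10.2 CPM in fresh ones (3.32 ± 0.36). Per3 followed Per2 and Tef into the 4 h trough, with -3.79 ± 0.67 against 1 h in vitrified and -2.86 ± 0.56 in fresh follicles. The other calls between vitrified and fresh follicles in this list were Fbxw11, a subunit of the ligase that marks PER for degradation, at 0 h (-0.72 ± 0.13, adjusted p = 0.00024) and the kinase gene Gsk3b at 8 h (-1.16 ± 0.30, adjusted p = 0.017). Fbxw11 alone differed in its step from 0 to 1 h, 1.26 higher in vitrified follicles (adjusted p = 0.0067).

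Of Nr4a1, Crem, Sik1 and Fos, genes known to answer cAMP and CREB, 3 were called higher at 1 h than at 0 h in each kind, beside 43.5% of all genes called in vitrified and 42.1% in fresh follicles. Nr4a1 averaged 30205 CPM at 1 h (shared plate) and 168 CPM at 0 h in vitrified follicles, and 22446 CPM at 1 h and 178 CPM at 0 h in fresh ones. Crem and Sik1 were also called higher, and Fos, already at a mean of 632 CPM in vitrified and 525 CPM in fresh follicles at 0 h, was not called. At 4 h against 1 h all 4 were called lower in both kinds, beside 46.5% of all genes called in vitrified and 46.4% in fresh follicles, while Per1 was not called. No explanation of Per1's later level was tested.

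**Figure D5:**
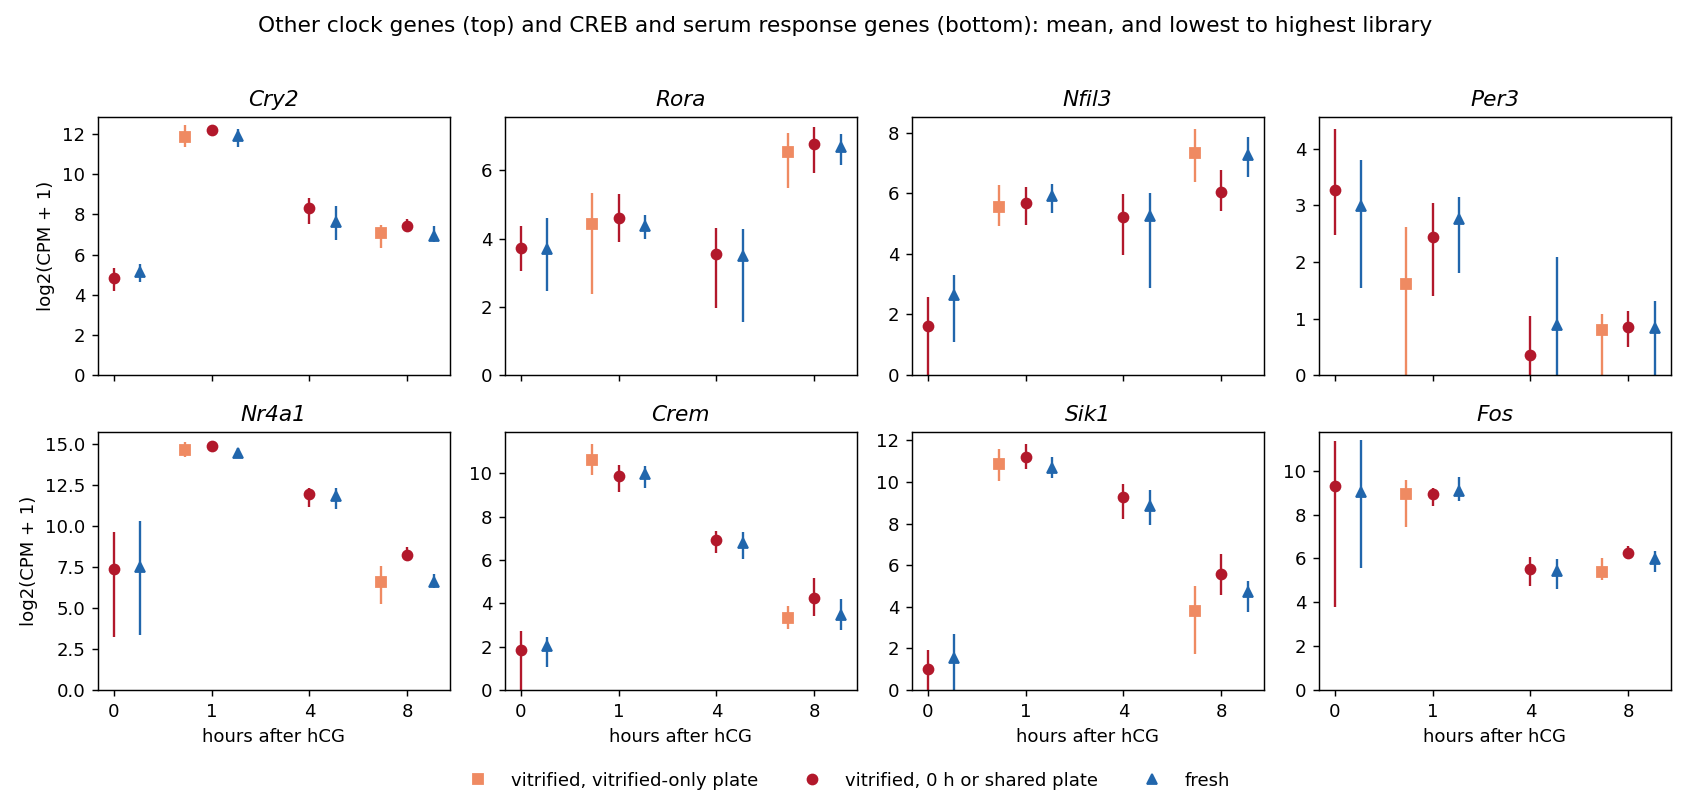
Mean log2(CPM + 1) with the lowest and highest library for Cry2, Rora, Nfil3 and Per3 and for the cAMP response genes Nr4a1, Crem, Sik1 and Fos, by hours after hCG, vitrified before fresh. Cry2 stood at a mean of 4765 CPM in vitrified (shared plate) and 3871 CPM in fresh follicles at 1 h, and Rora at 108 CPM and 102 CPM at 8 h.

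Over the 10 means the members paired off in part. Pearson's r of mean log2 CPM was 0.85 for Nr1d2 with Per2 and for Arntl with Per1, 0.83 for Dbp with Nr1d1, -0.82 for Clock with Tef and -0.80 for Cry1 with Nr1d1. These points share plates and libraries, and r is given as a description. Of all genes tested, those most like each member by this measure were Tbccd1 and Ndufaf1 for Nr1d1 (0.988 and 0.986), Canx and Jak1 for Nr1d2 (0.987 and 0.984), Gm5529 and Ssu72 for Per1 (0.987 and 0.973), Kif21a and Lsm4 for Per2 (0.990 and 0.989) and Ipmk and Gm9855 for Cry1 (0.97 and 0.96). For the others they were Cftr and Ro60 for Clock (0.988 and 0.963), Met and Fetub for Arntl (0.985 and 0.984), Crbn and Gpc2 for Dbp (0.940 and 0.938), Echs1 and Bet1 for Tef (0.993 and 0.992), and Nr5a1 and Med10 for Ciart (0.969 and 0.962).

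Before the stimulus, follicles of one kind could differ in clock state, so the 45 pairs of members were correlated across the 0 h libraries of each kind. Of the 90 correlations, 2 passed Benjamini-Hochberg adjustment over the 90 in a two-sided permutation test with 100000 resamples, and 14 had an unadjusted p under 0.05. Both were in fresh follicles (n = 18), Nr1d2 with Per2 (Pearson's r = 0.746, adjusted permutation p = 0.0369; Spearman's rho = 0.703, adjusted p = 0.0747) and Per1 with Tef (r = 0.703, adjusted permutation p = 0.0405; rho = 0.657, adjusted p = 0.0747). Without the 2 libraries farthest from the median of the first gene of each pair, r was 0.520 and 0.537 and neither passed. On libraries scaled by total counts r was 0.701 and 0.642 (adjusted permutation p = 0.156 for both), and on the deposited log2(TPM + 1) values 0.664 and 0.678 (adjusted permutation p = 0.0885 for both), so the size of r changed little and neither pair passed. In vitrified follicles (n = 15) r was 0.170 for Nr1d2 with Per2 (adjusted permutation p = 0.847) and 0.328 for Per1 with Tef (adjusted permutation p = 0.606), and the difference between the kinds was not tested.

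In the genome (GRCm38) the members lie apart, at chr5:76209868-76304792 (Clock), chr7:113207465-113314126 (Arntl), chr11:69095217-69109960 (Per1), chr1:91415982-91459324 (Per2), chr10:85131700-85185064 (Cry1), chr3:95878503-95882251 (Ciart), chr11:98767932-98775333 (Nr1d1), chr14:18204054-18239127 (Nr1d2), chr7:45705088-45710203 (Dbp) and chr15:81802421-81826863 (Tef). Only Per1 and Nr1d1, on chromosome 11, and Arntl and Dbp, on chromosome 7, share a chromosome.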

How the data were processed

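The authors deposited, for the same 83 libraries, a table of estimated counts per gene and a table of log2 values, the authors' log2(TPM + 1). Smart-Seq2 cDNA and Nextera XT libraries, which carry no molecular identifiers and do not mark strand, were sequenced on a NextSeq, per the labels' protocols. The submitters' processing notes name HISAT2, Bowtie2, Partek, DESeq2 and build mm10 without their roles, and no source used here says how multi-mapped reads were counted. Of the count values, 17.2% were not whole, and all were rounded. Row names of 21 genes look like dates and are not named.

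Counts were fitted with edgeR 4.0.16 in R 4.3.3 (robust quasi-likelihood, TMM scaling, expression filter at a minimum count of 10), with 1 mean for each group on each plate, 10 means in all, over 16 comparisons of times and kinds and 3 between plates or with 0 h across plates. Benjamini-Hochberg adjustment was over the 11889 genes tested within a comparison, and SE were derived from the F statistic. TPM levels were back-transformed from the deposited log2(TPM + 1) values. Ratios of groups with 3 counts or fewer have exact 95% intervals, which cover counting error only. Alternatives were total-count and RLE scaling, no expression filter, DESeq2 1.42.0, limma 3.58.1 on log2(TPM + 1) and log2(TPM + 0.1), 8 groups with or without a plate term, leaving out the vitrified-only plate, and leaving out single libraries. The fits were tested on simulated data. Positions are from GENCODE on GRCm38 and promoters from RefSeq on GRCm38.p6.

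The 10 members, the lists and the tests were chosen with earlier results of these data known. The rule for named genes took all 10 members, other clock genes called in a comparison within a plate, Fos, Nr4a1, Crem and Sik1, the 2 genes most like each member over the 10 means, and the response genes Areg, Ereg, Ptgs2 and Pgr. The 3 comparisons between plates or with 0 h across plates, the overlapping genes Thra and Sphk2, and the fits without the vitrified-only plate or without vitrified 4 h replicate 2 were chosen after the data were seen.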

Additional observations from a re-analysis of the deposited data

Results flagged for a closer look

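In 4 of the 70 groups of libraries examined for a library that stands apart from the others, the highest library was the only one with a count. These were Per2 in vitrified 4 h replicate 7 (0.97 CPM), Dbp in fresh 1 h replicate 1 (1.25 CPM), and Ciart in vitrified 1 h replicate 5 of the shared plate (0.22 CPM) and in fresh 1 h replicate 3 (0.39 CPM). Each value stands for 1 to 3 counts, and the other libraries of its group were at 0. The rule used always flags a group in which only 1 library holds a count, so no chance rate applies to these flags.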

How the results depend on the processing

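For members called in a comparison, 814 values over the alternatives kept their direction and call, 51 kept the direction but not the call, and 6 reversed. For members not called, 183 of 1432 values changed sign and 50 were called. In the vitrified change from 4 h to 8 h these sign changes took in Nr1d2 (0.01 and 0.03 under limma, 0.03 with and 0.62 without a plate term) and Ciart (-0.57 without one), and in vitrified against fresh follicles at 8 h Cry1 (0.49 and 0.87) and, without a plate term, Per1 (-0.37). Among called members, the reversals in the vitrified change from 4 h to 8 h were Clock, at 0.03 and 0.05 under limma on log2(TPM + 1) and log2(TPM + 0.1) and 0.15 with 8 groups and no plate term, and Cry1, at 0.07 with a plate term and 0.45 without one; the cause was not tested, though these plate fits pool vitrified libraries of both plates. Per1 in that step was 0.06 and not called without a plate term. Tef between 8 h and 1 h on the vitrified-only plate was 0.01 under limma on log2(TPM + 0.1).

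Counts of members called moved as follows. Vitrified against fresh follicles at 0 h gave 1 under limma on log2(TPM + 1), and at 8 h 1 with a plate term (Nr1d2 higher) and 2 without (Nr1d2 higher, Nr1d1 lower). The vitrified step from 4 h to 8 h gave 3 without a plate term, and from 1 h to 8 h on the shared plate 10 with and 10 without one. The plates at 1 h gave 1 without the expression filter. Correlated pairs at 0 h fell to 0 under each of 3 settings. Leaving out 1 library gave 7 to 9 members for vitrified 1 h over 0 h, 5 to 6 for 4 h over 1 h, 4 to 5 for 8 h over 4 h and 6 to 6 for 8 h over 1 h, 5 to 6 for fresh 8 h over 4 h and 7 to 9 for 8 h over 1 h, 0 to 1 for the plates at 1 h (1 without vitrified 1 h replicate 3 or 5) and 5 to 6 at 8 h. It left vitrified against fresh follicles at 1, 4 and 8 h and the differences between steps at 0. Without vitrified 4 h replicate 2, 6 members were called at 4 h over 1 h and 5 at 8 h over 4 h.

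Scaling by total counts turned the split of higher and lower members at 8 h over 4 h to 4 and 0 in vitrified and 6 and 0 in fresh follicles, from 4 and 2 in each. Limma also left 0 lower in each kind. It called 4 and 7 higher (vitrified and fresh) on log2(TPM + 1), and 6 and 6 on log2(TPM + 0.1). For all genes, vitrified against fresh follicles gave 115 calls at 0 h (181 by DESeq2, 1553 by limma on log2(TPM + 1)), 66 at 1 h (7 without vitrified 1 h replicate 4), 14 at 4 h (24 by DESeq2) and 245 at 8 h (417 by DESeq2, 43 without vitrified 8 h replicate 3). Depth limits Per2 and Tef at 4 h, Ciart at 1 h and Dbp throughout, where single counts decide the values. No paired analysis was possible because the labels give no replicate number, animal or culture that groups share.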
